A study of Mus musculus with 4 samples.

Results

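The genes described here are the mouse mitochondrial ribosomal protein genes, taken as every gene symbol of the count matrix that begins with Mrpl or Mrps followed by a number. The rule found 77 of 24421 symbols, and it used no measured value. The libraries came from B16F10 cells, a melanoma line of the C57BL/6 strain, and 2 of them (shControl 1 and 2) were made from cells stably carrying a control shRNA vector, whereas the other 2 (shLmna 1 and 2) were made from cells stably carrying an Lmna hairpin, which targets the transcript of lamins A and C of the nuclear lamina. The study's resource list gives the control as an empty vector while the labels call it a control shRNA, so the presence of a hairpin may be part of the comparison. Both lines were transduced with lentivirus, selected with puromycin and expanded, so that transduction and selection are shared by all 4 libraries. Each condition is 1 selected line, no label states that the libraries of a line are separate cultures, and the p-values therefore measure the spread between libraries, which may be technical. The comparison asks which of these transcripts differed between shLmna and shControl cells, and n = 2 per group throughout.

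Mitochondrial ribosomal proteins are encoded in the nucleus, made in the cytosol and imported into mitochondria, where they assemble with ribosomal RNAs of the mitochondrial genome into a large subunit (Mrpl genes) and a small subunit (Mrps genes). The resulting mitoribosome translates the few proteins that mitochondria encode themselves, which are core subunits of the respiratory chain and of ATP synthase. Part of the proteins descend from bacterial ribosomal proteins, and the others were added in the mitochondrial lineage and are absent from bacterial ribosomes. A few symbols depart from this naming. The products of Mrps30 and Mrps18a sit in the large subunit and were grouped there, and the product of Mrps36 is a subunit of the alpha-ketoglutarate dehydrogenase complex and not of the ribosome.

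Promoters of nuclear genes for mitochondrial proteins often hold short motifs of the ETS family, which includes GABP, of NRF1 and of YY1. The promoters of the 2 higher and the 2 lower members with the smallest p are shown first, with that of Mrpl37, which was chosen after its values were seen because it holds a YY1 motif and passed the test. Each runs 5′ to 3′ on the strand of the gene, from 250 bases before to 50 bases after the RefSeq start site (GRCm38.p6), and capitals mark the motif matches.
Mrpl51, chr6:125191950-125192249, plus strand: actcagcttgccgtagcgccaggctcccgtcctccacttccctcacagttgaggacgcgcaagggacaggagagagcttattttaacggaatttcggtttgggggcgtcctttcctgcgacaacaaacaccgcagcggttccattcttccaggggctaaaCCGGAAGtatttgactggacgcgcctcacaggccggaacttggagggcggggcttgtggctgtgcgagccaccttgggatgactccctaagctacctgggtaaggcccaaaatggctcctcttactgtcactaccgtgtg
Mrpl10, chr11:97041332-97041631, plus strand: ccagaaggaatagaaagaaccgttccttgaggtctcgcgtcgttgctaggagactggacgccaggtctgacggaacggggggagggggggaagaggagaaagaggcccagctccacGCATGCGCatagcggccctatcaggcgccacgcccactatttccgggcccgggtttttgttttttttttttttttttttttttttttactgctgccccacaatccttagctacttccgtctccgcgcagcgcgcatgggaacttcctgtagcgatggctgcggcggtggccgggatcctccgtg
Mrps26, chr2:130563507-130563806, plus strand: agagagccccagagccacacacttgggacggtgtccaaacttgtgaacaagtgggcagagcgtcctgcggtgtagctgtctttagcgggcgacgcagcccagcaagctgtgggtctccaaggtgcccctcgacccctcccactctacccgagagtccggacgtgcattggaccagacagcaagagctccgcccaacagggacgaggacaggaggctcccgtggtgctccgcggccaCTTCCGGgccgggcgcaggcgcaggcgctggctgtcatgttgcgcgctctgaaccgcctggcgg
Mrps21, chr3:95871465-95871764, minus strand: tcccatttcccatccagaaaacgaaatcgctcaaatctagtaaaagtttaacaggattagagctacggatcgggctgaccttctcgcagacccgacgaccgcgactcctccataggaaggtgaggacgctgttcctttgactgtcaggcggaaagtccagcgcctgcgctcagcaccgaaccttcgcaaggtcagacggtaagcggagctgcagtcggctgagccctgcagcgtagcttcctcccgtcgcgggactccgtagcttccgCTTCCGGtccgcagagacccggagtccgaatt
Mrpl37, chr4:107066817-107067116, minus strand: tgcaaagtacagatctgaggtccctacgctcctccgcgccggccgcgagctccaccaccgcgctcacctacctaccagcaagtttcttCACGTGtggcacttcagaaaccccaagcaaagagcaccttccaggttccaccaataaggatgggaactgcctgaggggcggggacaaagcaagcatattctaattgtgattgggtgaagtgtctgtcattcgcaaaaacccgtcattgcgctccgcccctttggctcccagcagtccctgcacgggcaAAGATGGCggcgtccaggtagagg
The capitals are an ETS motif starting 90 bases before the start site in Mrpl51, an NRF1 motif on the opposite strand 134 bases before it in Mrpl10, and ETS motifs on the opposite strand 14 bases before it in Mrps26 and 18 bases after it in Mrps21. In Mrpl37 they are an E-box 162 bases before and a YY1 motif 26 bases after the start site. Both directions of change are thus represented among the promoters with an ETS motif.

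Motifs for these factors and the E-box, 4 in all, were searched on both strands in the first listed promoter of each gene, and 68 of the 77 members had one. The ETS motif CCGGAAG was present in 24 members, which is 35.3% against 21.4% of 7150 tested genes with a promoter. The YY1 motif AAGATGGC was present in 12 members (17.6% against 5.47%), and the NRF1 motif GCGCATGC in 8 members (11.8% against 6.28%). The E-box CACGTG, which MYC and other factors bind, was present in 5 members (7.35% against 11.1%). The searched letters do not overlap each other in any of the promoters printed above. The median log2 fold change was 0.04 over the 11 tested members with the YY1 motif and 0.06 over the 51 without it, and it was -0.01 over the 22 tested members with the ETS motif and 0.06 over the 40 without it. A match describes the letters of the window and is not evidence of binding.

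Libraries held 2494880 to 3808843 counts over 11562 to 12395 genes with a count. Lmna, the targeted gene, checked the labels: its level was 797 ± 111 (SD) CPM (counts scaled to library size by TMM) in shControl and 130.8 ± 0.0955 CPM in shLmna (log2 fold change -2.61, SE 0.142, adjusted p = 7.93e-06 by edgeR). The melanocyte genes Pmel, Mlana, Dct and Tyrp1 each had at least 6028 counts in every library, whereas Tyr, which encodes tyrosinase, had 1, 1, 3 and 7 counts. Among markers of other cell types Ptprc, Cd3e, Cdh5, Epcam and Acta2 had 0 counts in all libraries, and Krt8, Col1a1, Pecam1 and Krt18 did not exceed 16. Tyr was not tested, and of the 6 tested melanocyte markers 50% had an edgeR adjusted p under 0.05, against 15.2% of all tested genes. Mlana and Pmel were higher and Sox10 lower in shLmna, and the part of this in the results was not tested.

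The members were abundant. Of the 77, 71 passed the filter on low counts and were tested, and their median level of 145.9 CPM corresponded to a median percentile of 85.1 among 9150 tested genes, with 50 members above the upper quartile and 20 above the upper decile. MARS-seq counts the 3′ end of each transcript in a fixed window, so these levels are per transcript end and were not divided by transcript length. Together the members took 1.20% and 1.17% of all counts in shControl 1 and 2 and 1.26% and 1.23% in shLmna 1 and 2. The 5 most abundant tested members held 23.2% of the summed level of all tested members.

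Mrpl12, whose product forms the flexible stalk that contacts translation factors, was the most abundant member, with 649 and 621 CPM in shControl and 796 and 712 CPM in shLmna. Its groups did not overlap, and the log2 fold change of 0.25 did not pass the test (SE 0.118, edgeR adjusted p = 0.193). Mrpl30, a large subunit protein with a bacterial counterpart, measured 731 and 672 CPM in shControl and 615 and 625 CPM in shLmna. Mrpl52, specific to the mitochondrial large subunit, measured 492, 494, 495 and 479 CPM in the same order of libraries, and its groups overlapped. In the small subunit Mrps24, the counterpart of a bacterial protein at the messenger RNA entry, was highest with 543 and 496 CPM in shControl and 547 and 573 CPM in shLmna. Mrps26 and Mrps6 followed with means of 252.2 and 219.3 CPM over the 4 libraries, and Mrps6, which has a bacterial counterpart, had a log2 fold change of 0.11 (adjusted p = 0.623). The plot of levels by library shows a gap between most members and a small set of low ones.

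**Figure D1:**
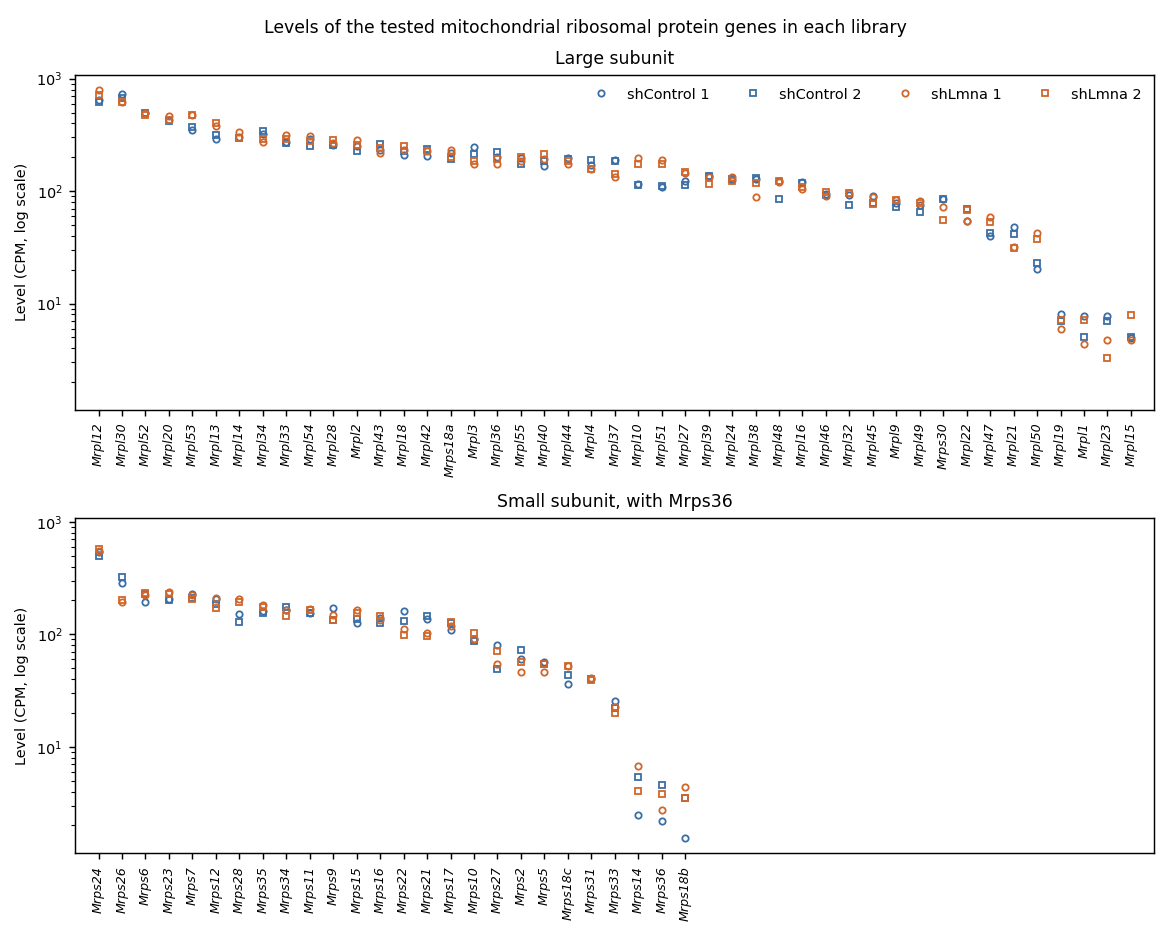
Level of each of the 71 tested members in each library, in CPM on a log axis, ordered by mean level, with large subunit members above and small subunit members with Mrps36 below. Blue symbols are shControl and orange symbols shLmna libraries, circles replicate 1 and squares replicate 2; Mrps33, at 19.9 to 25.4 CPM, is the last small subunit member before a gap, and the 7 members to the right of the gaps lie at 1.55 to 8.05 CPM.

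That low set had 13 members with no more than 30 counts in any library, of which 7 were tested (Mrpl1, Mrpl15, Mrpl19, Mrpl23, Mrps14, Mrps18b and Mrps36) and 6 were not. The lowest tested member, Mrps18b, averaged 3.23 CPM, against 694.7 CPM for Mrpl12. Among the untested members Mrpl11, at the base of the stalk in bacterial ribosomes, had 6 and 4 counts in the shControl libraries against 9 and 9. Mrps25 had 5 and 2 counts against 11 and 6, and Mrpl35 had 4 and 4 against 6 and 6. For Mrpl41 the counts were 0, 1, 3 and 0, for Mrpl57 they were 0, 0, 0 and 2, and Mrpl17 had 0 counts in all 4 libraries. A count of 3 equals 0.803 to 1.19 CPM on the TMM scale, so a count of 0 allows a level of up to this value, and counting error alone sets that limit.

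The counting window, which is the last 1000 bases of each gene and 100 bases downstream, was compared between the low set and the other members. In 7 of the 13 low members more than 10% of the window was covered by exons of another gene or of its 31-base words shared with transcripts of other loci, against 24 of the 64 other members. The window of Mrps25 lay entirely (100%) over antisense exons of Nr2c2, that of Mrpl19 to 81.6% over antisense exons of Gcfc2, and that of Mrpl23 shared 77.0% of its words with the pseudogene Mrpl23-ps1. Median GC content of the last 1000 transcript bases was 43.5% in the low set and 49.7% in the others. Many low members had long annotated transcripts. Mrpl17, Mrps25, Mrpl19, Mrpl15 and Mrpl35 had 7300, 6073, 5000, 4203 and 3721 bases. Mrpl1, Mrpl11, Mrps14 and Mrpl57 had 3431, 3045, 2999 and 2877, whereas Mrps18b, Mrpl41, Mrps36 and Mrpl23 had 1079, 776, 701 and 692. Long transcripts also occurred among the other members, such as Mrps5 (4481), Mrpl48 (4285) and Mrps26 (4278). Whether reads of these genes were lost or split in counting was not tested, and whether the counting used strand is not given in the sources used here.

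In the comparison of shLmna with shControl, 9 of the 71 tested members had an adjusted p under 0.05 by the quasi-likelihood test of edgeR, 5 of them higher and 4 lower in shLmna. Over all 9150 tested genes 15.2% passed, 5.48% higher and 9.74% lower, so the share of 12.7% among the members was near this background. None of the 71 (0) met all 3 limits of a call (adjusted p under 0.05, a log2 fold change above 1 in size and a mean normalised count above 5), which 7.64% of all tested genes and 48 of the 2017 of at least 100 CPM (2.38%) met. With edgeR 18 members (25.4%) had an unadjusted p under 0.05, against 30.1% of all tested genes, and DESeq2 likewise called 0 members. In bulk libraries fewer cells of a type and less RNA per cell cannot be told apart. The count of 9 depended on both shLmna libraries. Without shLmna 1 it fell to 0, and 5.75% of all genes passed, and without shLmna 2 it fell to 2, Mrpl51 and Mrpl10, and 5.28% of all genes passed. Without shControl 1 it was 8 of 73, with Mrps22 and Mrpl53 no longer passing, where 21.8% of all genes passed. Without shControl 2 it was 10 of 73, with Mrps28 no longer passing, where 14.8% of all genes passed. Scaling by the upper quartile or by library totals kept the count at 9, with Mrpl13 in place of Mrps22.

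Changes of the members were small. The median log2 fold change was 0.06 over the 71 members, with 39 above and 32 below 0, and -0.00107 over all tested genes. Values ranged from -0.90 for Mrpl23 to 0.87 for Mrpl50, and their SD of 0.317 compared with 0.945 over all tested genes. No tested member (0) exceeded 1 in size, against 9.95% of all tested genes and 2.43% of the 2017 tested genes of at least 100 CPM, whose SD was 0.466. Among the 47 members of at least 100 CPM the SD was 0.283. The 0 held with all libraries, whereas Mrps18b reached 1.31 without shControl 2 and Mrpl23 reached -1.15 without shLmna 1. The 95% interval of the log2 fold change lay entirely between -1 and 1 for 64 of the 71 members (90.1%), against 66% of all tested genes. Abundant genes have narrower intervals, and among genes of at least 100 CPM the interval lay in that range for 47 of 47 members and for 93.9% of 2017 genes. For most members, then, a change of more than 2-fold in either direction lay outside the interval. Libraries of the 2 groups did not overlap for 41 members (57.7%), against 60.1% of all tested genes.

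**Figure D2:**
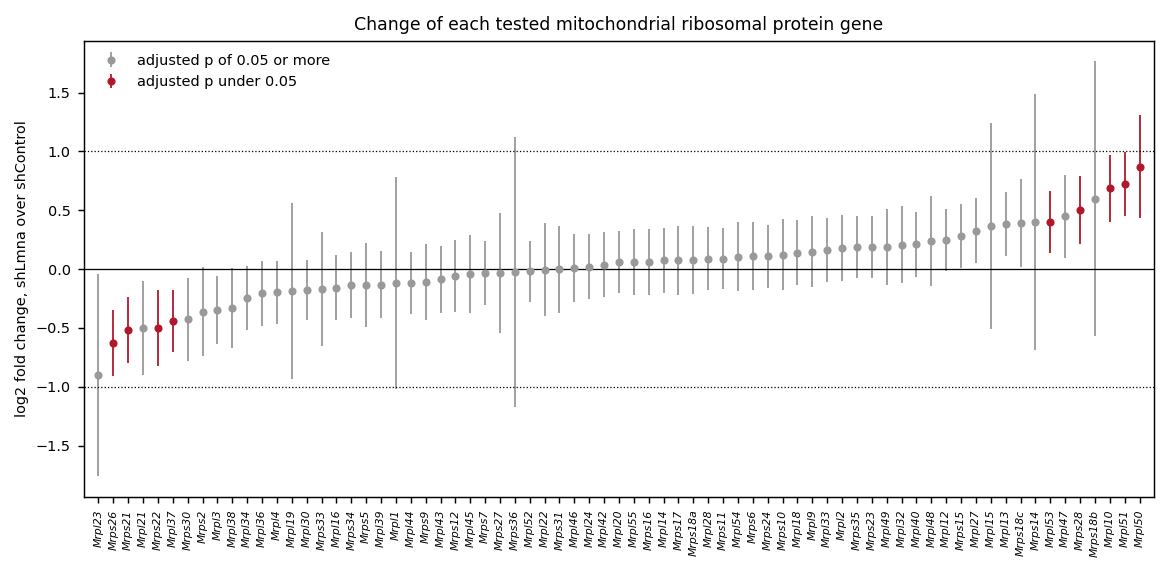
The log2 fold change of shLmna over shControl for each of the 71 tested members, in rising order, with its 95% interval from the edgeR fit as a vertical line. Red marks the 9 members with an adjusted p under 0.05 and dotted lines mark -1 and 1; the widest intervals belong to members of few counts such as Mrps36, Mrps18b and Mrps14.

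**Figure D3:**
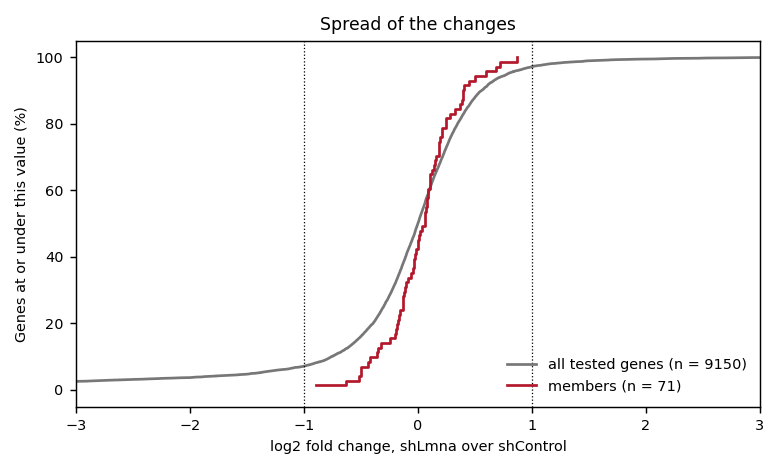
Percentage of genes at or under each log2 fold change of shLmna over shControl, for the 71 tested members (red) and all 9150 tested genes (grey), with dotted lines at -1 and 1. The axis is cut at -3 and 3; all members lie between -0.90 and 0.87, whereas 9.95% of all tested genes, and 2.43% of those of at least 100 CPM, lie beyond the dotted lines.

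Among the large subunit members that rose, Mrpl51 had the smallest p. It is specific to mitochondria and spans bases 125191801 to 125196269 of chromosome 6 (GRCm38). The shControl libraries held 349 and 418 counts and the shLmna libraries 481 and 636, equal to 108.1 and 111.9 CPM against 190.2 and 173.3 CPM. Both shLmna libraries lay above both shControl libraries, and it was 1.65-fold higher (log2 fold change 0.72, SE 0.123, edgeR adjusted p = 0.00404). Mrpl10, whose product anchors the stalk protein Mrpl12 on the ribosome, lies on chromosome 11 at 97041560 to 97049213. Its levels were 116.2 and 114.3 CPM in shControl and 198.9 and 172.5 CPM in shLmna, and it was 1.61-fold higher (log2 fold change 0.69, SE 0.127, edgeR adjusted p = 0.00641). Exons of Gm11574 on the opposite strand cover 21.8% of its counting window.

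Mrpl50 is another protein of the large subunit without a bacterial relative, encoded on chromosome 4 at 49512596 to 49521093. The shControl libraries held 66 and 86 counts of it, and the shLmna libraries 107 and 138. Levels rose from 20.44 and 23.02 CPM to 42.3 and 37.6 CPM, the largest increase of any tested member (log2 fold change 0.87, SE 0.197, edgeR adjusted p = 0.0161). Mrpl53, also specific to mitochondria and located on chromosome 6 at 83109040 to 83109939, was among the most abundant members. It measured 348.8 and 371.1 CPM in shControl and 475.4 and 476.8 CPM in shLmna (log2 fold change 0.40, SE 0.118, adjusted p = 0.0458 by edgeR). Exons of Gm42688 on the same strand cover 87.4% of its window, so its counts cannot be assigned to Mrpl53 with certainty.

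Mrpl37, a mitochondria-specific protein encoded on chromosome 4 at 107055874 to 107066868, was the 1 large subunit member that passed as lower. Its levels were 188.9 and 183.4 CPM in shControl and 134.1 and 140.6 CPM in shLmna (log2 fold change -0.44, SE 0.118, edgeR adjusted p = 0.0337). In the small subunit 3 of the members that passed fell and 1 rose. Mrps26, specific to mitochondria and encoded on chromosome 2 at 130563742 to 130568695, was counted 924 and 1220 times in shControl cells and 490 and 742 times in shLmna cells. Its levels of 286.2 and 326.6 CPM against 193.8 and 202.2 CPM placed it lower in both shLmna libraries (log2 fold change -0.63, SE 0.126, adjusted p = 0.00925 by edgeR). It was the member with the largest decrease among those that passed.

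Mrps21, a small subunit protein with a bacterial counterpart (chromosome 3, 95862634 to 95871519), measured 137.5 and 146.7 CPM in shControl and 102.4 and 96.5 CPM in shLmna. It fell by 0.52 on the log2 scale (SE 0.125, adjusted p = 0.0216 by edgeR), and 22.3% of the 31-base words of its window occur in transcripts of other loci, among them Gm6181. Mrps22, a mitochondria-specific protein whose human counterpart is mutated in inherited respiratory chain disease (chromosome 9, 98588730 to 98601660), measured 162.0 and 132.3 CPM against 110.7 and 97.8 CPM (log2 fold change -0.50, SE 0.144, adjusted p = 0.0445 by edgeR). It did not pass with upper-quartile scaling (edgeR adjusted p = 0.0571) or library totals (0.0580), and it passed under 7 of 13 alternatives. Mrps28, with a bacterial counterpart (chromosome 3, 8802146 to 8923918), was the one that rose, from 152.7 and 129.6 CPM to 206.9 and 192.4 CPM (log2 fold change 0.50, SE 0.129, edgeR adjusted p = 0.0286). The libraries of the 2 groups were separate for all 9 members, as the plot of these genes by library shows. Selection by p at n = 2 per group nearly fixes this, so it is no further evidence. Of all tested genes 60.1% were separate.

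**Figure D4:**
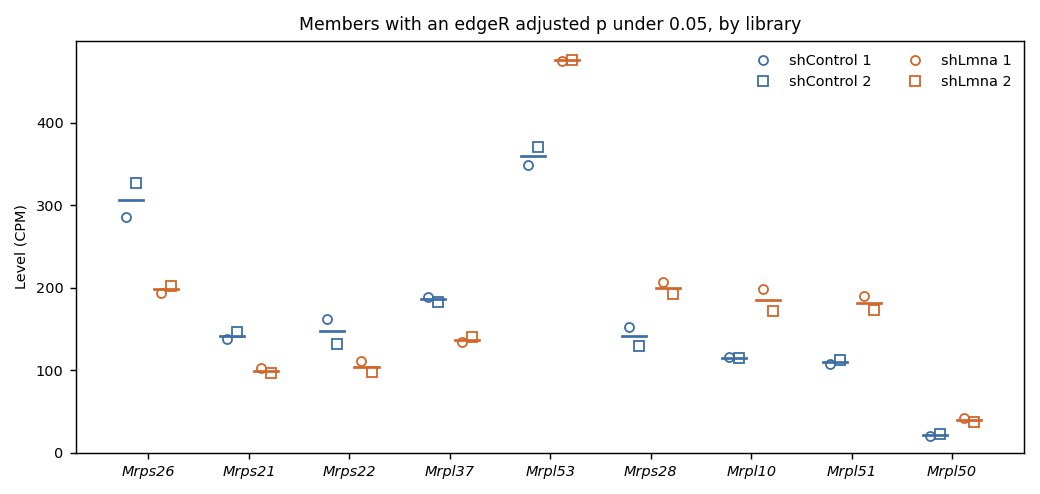
Level in CPM, on an axis from 0, of the 9 members with an edgeR adjusted p under 0.05 in each library; blue is shControl, orange shLmna, circles replicate 1, squares replicate 2, and horizontal lines the means of 2 libraries. Mrps26, Mrps21, Mrps22 and Mrpl37 are lower in both shLmna libraries, and Mrpl53, Mrps28, Mrpl10, Mrpl51 and Mrpl50 are higher in both.

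By subunit, 1 lower and 4 higher members passed among 45 tested of the large subunit, and 3 lower and 1 higher among 25 tested of the small subunit, with a median log2 fold change of 0.06 in each. Of 27 large subunit members with bacterial homologues 1 passed, and of 18 specific to mitochondria 4 passed. In the small subunit 2 of 16 members with bacterial homologues and 2 of 9 specific to mitochondria passed. The shares were 11.1% of the large and 16% of the small subunit, against 15.2% of all tested genes. By class they were 3.70%, 22.2%, 12.5% and 22.2%, in the order given. These counts are small, and no difference between the classes was tested. Mrps36, the member outside the ribosome, had 7, 17, 7 and 14 counts and a log2 fold change of -0.02.

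Summed over the 71 tested members, the level was 12100 and 11879 CPM in shControl and 12451 and 12257 CPM in shLmna, a mean difference of 3.04%. The large subunit sum was separate between the groups, with 8495 ± 97.5 (SD) CPM in shControl and 8879 ± 100 CPM in shLmna (4.52% more), whereas the small subunit libraries overlapped, with 3492 ± 60.7 and 3472 ± 37.2 CPM. The ratio of the summed large to the summed small subunit level was 2.42 and 2.44 in shControl and 2.56 and 2.56 in shLmna. These sums are a description, since a few abundant genes set them, and 60.1% of all single tested genes were separate as well. Subunit sums were computed with TMM scaling alone. The log2 ratio of the summed level of all members was 0.0432 with TMM and 0.0758 with library totals. The 72 tested genes of cytosolic ribosomal proteins, which build the ribosome outside mitochondria, had a summed level of 131240 ± 2283 CPM in shControl and 127311 ± 2368 CPM in shLmna. Of those 72, 9 were lower and 6 higher with an adjusted p under 0.05 (20.8%, against 15.2% of all tested genes). All the limits of a call were met by 3 (4.17%, against 7.64%), and the median log2 fold change was -0.08.

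The 3 members closest to passing were Mrpl13, Mrpl47 and Mrpl21, each with a bacterial counterpart. Mrpl13 measured 290.2 and 312.7 CPM in shControl and 379.3 and 406.8 CPM in shLmna (log2 fold change 0.38, edgeR adjusted p = 0.0635, and 0.0472 with upper-quartile scaling). Mrpl47 measured 39.7 and 42.3 CPM against 58.5 and 53.7 CPM (0.45, edgeR adjusted p = 0.0882), and Mrpl21 measured 47.7 and 41.2 CPM against 31.6 and 31.1 CPM (-0.50, edgeR adjusted p = 0.0909). None of these had overlapping groups, and neither did 60.1% of all tested genes. Mrpl23 had the largest log2 fold change in size, -0.90 with a 95% interval of -1.76 to -0.04, from 25 and 26 shControl counts against 12 and 12, and it did not pass (edgeR adjusted p = 0.150).

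The genes Mrps18a, Mrps18b and Mrps18c descend from a single bacterial gene, and their products occupy different places in the mitoribosome. In the classes above, Mrps18a and Mrps18b were nonetheless counted as specific to mitochondria, and Mrps18c among those with bacterial homologues. Mrps18a, in the large subunit, was at 216.2 and 194.9 CPM in shControl and 232.2 and 202.4 CPM in shLmna. Mrps18c, which holds the place of the bacterial protein, was lower at 36.2 and 43.6 CPM against 52.6 and 52.6 CPM, and Mrps18b was lowest at 5, 13, 11 and 13 counts. This order of the 3 genes held in each library. None passed the test: the log2 fold changes were 0.08, 0.60 and 0.39 for Mrps18a, Mrps18b and Mrps18c, with edgeR adjusted p-values of 0.730, 0.486 and 0.147. That of Mrps18b was 0.16 without shControl 1 and 1.31 without shControl 2. The window of Mrps18b lies to 67.1% over antisense exons of Gm16279, and 23.6% of that of Mrps18c lies over exons of Gm43511.

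Some members without a call differed more between libraries of one group than between groups. Mrps27, a mitochondria-specific protein of the small subunit, had 80.8 and 49.3 CPM in shControl and 55.0 and 70.6 CPM in shLmna. Mrpl48 had 123.0 and 85.1 CPM in shControl and 121.4 and 124.0 CPM in shLmna, so that shControl 2 stood apart from the other 3 libraries. Others barely moved: Mrps31 was at 40.0, 40.4, 41.1 and 39.2 CPM, and the 95% interval of its log2 fold change reached from -0.38 to 0.37.

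Position in the genome was also examined. The members lie on 17 chromosomes, with at most 10 on one. For 33 of the 77 members (42.9%) another coding gene starts on the opposite strand within 1000 bases, on either side of the member's start. The share was 18.8% of 8921 tested coding genes. Such pairs may thus point away from each other or overlap. Mrps11 and Mrpl46 form such a pair with each other, with starts 412 bases apart and overlapping genes. Their log2 fold changes were 0.09 and 0.01. Of the 9 members that passed, 4 have such a neighbour. For Mrpl10 and Mrpl50 it was not tested, since Lrrc46, 153 bases away, had 2, 2, 3 and 5 counts and Zfp189, 83 bases away, had 8, 6, 6 and 8. Mrpl51 shares its start region with Ncapd2, a condensin subunit gene 100 bases away (log2 fold change -0.22, adjusted p = 0.288 by edgeR). Mrpl37 has Cyb5rl at 120 bases, for which the values were 0.27 and 0.693 by edgeR. Neither of these 2 tested neighbours passed the test. All these distances run between GENCODE gene starts. That of Mrpl51, at 125191801, lies before the RefSeq promoter printed above, which begins at 125191950.

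The share of all tested genes that passed differed with GC content of the transcript end. It was 27.8% at a GC content of up to 42% in the last 1000 bases, against 8.82% to 11.3% in the bins above. The median log2 fold change of all genes was -0.03, 0.07, 0.06, -0.0004 and -0.09 from the lowest to the highest bin. The members had a median GC content of 49.5%, against 46.9% for all tested genes, and 15.5% of them lay at or under 42%, against 28.5%. Of the 11 members in that bin 1 passed in each direction, Mrpl50 and Mrps22. Mrps26 lay just above it at 42.2%. With GC content as an offset in the fit, all 9 members still passed, where 14.8% of all genes passed. The offset removes an average trend with GC content in each library. It cannot remove an excess of changes in both directions at low GC content, so the difference in shares was not addressed.

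Other genes of mitochondrial translation were read beside the members. Of the mitoribosomal proteins whose symbols the rule does not match, 4 were tested and 0 passed, where 15.2% of all tested genes passed. With edgeR 2 of them (50%) had an unadjusted p under 0.05, against 30.1% of all tested genes. Ptcd3 had a log2 fold change of 0.52, Chchd1 of 0.33, Aurkaip1 of 0.26 and Ict1 of -0.03, with edgeR adjusted p-values of 0.116, 0.106, 0.198 and 0.928. Dap3, a protein of the small subunit, had 8, 2, 5 and 8 counts, and Gadd45gip1 had 1, 4, 1 and 1 counts, so neither was tested. Genes encoded by mitochondrial DNA were not analysed here.

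Among 22 tested genes of mitoribosome assembly, rRNA processing and rRNA modification, 3 were higher and 1 was lower. This was 18.2% of the list, against 15.2% of all tested genes. Mterf3, needed for mitochondrial transcription control and assembly of the large subunit, fell from 60 and 77 counts to 9 and 7 (log2 fold change -2.89, SE 0.348, edgeR adjusted p = 0.000514). Fastkd2, an RNA-binding protein required for the large subunit rRNA, rose from 45 and 67 counts to 109 and 133 (log2 fold change 1.30, SE 0.224, edgeR adjusted p = 0.00422). Rnmtl1, which methylates that rRNA, rose by 0.68 (edgeR adjusted p = 0.0313), and Wbscr16 rose by 0.51 (edgeR adjusted p = 0.0461). The median over the 22 genes was 0.21.

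Of 14 tested translation factors and messenger RNA handling proteins, Slirp, which stabilises mitochondrial messenger RNAs together with Lrpprc, rose from 87.1 ± 4.04 (SD) to 137.6 ± 1.17 CPM (log2 fold change 0.66, edgeR adjusted p = 0.00715) and the other 13 did not pass. Of 14 tested mitochondrial aminoacyl-tRNA synthetases, Yars2, which charges the tyrosine tRNA, fell from 53.4 ± 3.26 to 20.2 ± 1.13 CPM (log2 fold change -1.40, edgeR adjusted p = 0.000864). In each of the 2 lists 7.14% passed, against 15.2% of all tested genes. Their median log2 fold changes were 0.14 and 0.05.

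In the list of 13 genes of mitochondrial transcription and genome maintenance, Trmt10c, a subunit of the mitochondrial RNase P that frees tRNAs from their precursors, fell from 134 and 202 counts to 7 and 4 (log2 fold change -4.71, SE 0.363, edgeR adjusted p = 2.94e-05). Tfb2m, a transcription initiation factor, rose from 16 and 14 counts to 30 and 33 (1.25, edgeR adjusted p = 0.0422). Ssbp1, which binds single-stranded mitochondrial DNA, rose by 0.45 on the log2 scale (edgeR adjusted p = 0.0472). Of the 13 genes 23.1% passed, against 15.2% of all tested genes. Among 9 tested nuclear regulators of mitochondrial genes, Yy1 fell from 182 and 307 counts to 8 and 14 (log2 fold change -4.28, SE 0.294, edgeR adjusted p = 2.01e-05). Gabpb2, a subunit of GABP, fell by 0.89 (edgeR adjusted p = 0.0319), and Pprc1, a coactivator related to PGC-1, rose by 0.70 (edgeR adjusted p = 0.0274). Nrf1, Gabpa and Myc had log2 fold changes of 0.20, 0.50 and 0.03 and did not pass (edgeR adjusted p = 0.420, 0.146 and 0.904). Of the 9 regulators 33.3% passed, against 15.2% of all tested genes.

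Of the 12 genes of these lists that passed, Mterf3, Fastkd2, Yars2, Trmt10c and Yy1 also passed without any one of the 4 libraries. The other 7 did not pass without shLmna 1 or without shLmna 2, and of these Wbscr16 also failed without shControl 1, and Rnmtl1, Tfb2m, Ssbp1, Gabpb2 and Pprc1 without shControl 2. With DESeq2 6 of the 12 passed, namely those 5 and Slirp, where 5.93% of all genes passed, against 15.2% in the main analysis. The share of all genes that passed was also lower without shLmna 1 and without shLmna 2, as given above. The 12 were picked because they passed in the main analysis.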

How the data were processed

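RNA of B16F10 shControl and shLmna cells was profiled by bulk MARS-seq. Per the study's methods, the authors trimmed reads with Cutadapt, aligned them to mm10 with STAR 2.4.2a and counted them with HTSeq over the terminal 1000 bases of each RefSeq gene plus 100 bases downstream, with UMI duplicates marked. The authors deposited raw counts per gene symbol, the input of every main test. Whether these precede collapsing of duplicates is not stated. A second deposited table holds a signal, a count divided by a size factor, with the authors' p-values, which were not used. Its values (100%) were whole multiples of 1 step within 0.01, and these multiples are the recovered counts. Over the genes of that table the raw counts summed to 1.077 to 1.088 times the recovered counts, by library. Another deposited table holds log2 values corrected for unnamed batches with ComBat.

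Counts were tested with edgeR 4.0.16 in R 4.3.3 (quasi-likelihood F test, two-sided, TMM, filterByExpr, group as the one term, Benjamini-Hochberg over 9150 genes), checked first on simulated data. The call limits follow the study's, set there for DESeq2 (here 1.42.0, an alternative). limma 3.58.1 was used for the log2 values. SEs derive from the F statistic, and CPM are TMM-scaled. Members and gene lists were chosen with earlier results of these data known. Genes named are members with an adjusted p under 0.05, the 3 most abundant of each subunit, the 3 nearest to passing, the 3 largest changes, untested members, the Mrps18 genes and list genes that passed. Mrps27, Mrpl48, Mrps31, Mrps33, Mrps36, Mrps11, Mrpl46 with other low members, list genes that did not pass and neighbouring genes were added after their values were seen. Gene positions and windows come from GENCODE vM21 and promoters from RefSeq (GRCm38.p6). Alternatives were other scalings, filters, tools and tables, a GC offset, a replicate block and leaving out each library.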

Additional observations from a re-analysis of the deposited data

How the results depend on the processing

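With n = 2 per group and a lone library where 1 is left out (assumed to vary like the other group), the counts of members that passed are the least stable values. The count of members meeting all 3 limits was 0 under each of the 13 alternatives, and the 9 members kept their direction in all of them. Selection by p in these same libraries, with the groups separate for all 9, nearly fixes the direction, so it is no further evidence. DESeq2 passed 1 lower and 3 higher members (Mrps26 lower, and Mrpl51, Mrpl10 and Mrpl53 higher), with no adjusted p for 2 members, where 5.93% of all genes passed. The batch-corrected log2 values passed 12 lower and 18 higher, where 36.3% of all genes passed. Changes were smaller on that scale: the largest of a member was 0.374 in size, against 0.899 in the main analysis. A limit of 1 is therefore harder to meet there, and the 0 from that table adds little. Leaving out 1 library gave 0 to 5 lower and 0 to 5 higher members. The median log2 fold change of the members was 0.0903 with upper-quartile scaling, 0.0924 with library totals, 0.0173 with the GC offset, 0.0282 in the batch-corrected values and 0.00315 to 0.0765 without 1 library. The log2 ratio of their summed level, 0.0432 in the main analysis, was 0.0736 with upper-quartile scaling, 0.0758 with library totals, 0.0681 with the GC offset and 0.0268 to 0.0674 without 1 library. Of 27 members recomputed under each alternative, 8 changed sign under at least 1, none of which passed in the main analysis. Mrpl52, at -0.02 in the main analysis, was 0.0119 with upper-quartile scaling, 0.0142 with library totals, 0.00242 with the recovered counts, 0.0601 with the GC offset, 0.000581 in the batch-corrected values and -0.0374 to 0.0185 without 1 library. Mrps6 was -0.00544 without shControl 1 and up to 0.233 without another library, and Mrps18a was -0.0166 without shLmna 1 and up to 0.189 without another. Mrps31 was 0.0274 with upper-quartile scaling, 0.0298 with library totals, 0.00260 with DESeq2 and -0.0301 to 0.0465 without 1 library. Mrps36 was 0.00405 with upper-quartile scaling, 0.00727 with library totals and -0.429 to 0.619 without 1 library. Mrps27 was 0.0310 with the recovered counts, 0.0173 with the GC offset, 0.00899 in the batch-corrected values and -0.355 to 0.364 without 1 library. Mrpl46 was -0.00150 in the batch-corrected values and -0.0337 to 0.0672 without 1 library, and Mrpl48 was -0.00562 without shControl 2 and up to 0.530 without shControl 1, where it passed. The causes were not tested.

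A replicate block passed 6 lower and 6 higher members, adding Mrpl13, Mrpl3 and Mrps30, and 2072 genes in all against 1392 without it. The labels do not state that libraries of one number are paired, and the correlation of same-numbered deviations from the group means was 0.0134 over all genes.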
